A study of Drosophila melanogaster with 2 samples.

Results

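A set of 1289 peaks of the CG1663 protein lay between genes and within reach of a gene start. Sites were taken from 9657 peaks that the authors kept at a set irreproducible discovery rate (IDR), which scores a peak by how similarly it ranks in repeated experiments. A peak was a member when its summit was inside no gene of the Ensembl BDGP6 annotation and over 500 and up to 5000 bp from the nearest annotated transcript start. The members made up 13.3% of the peaks (95% exact interval 12.7 to 14.0). Of the other peaks, 794 had their summit between genes and over 5000 bp from a start, 4628 inside a gene and over 500 bp from a start, and 2946 within 500 bp of a start. The rule uses position alone, and neither signal nor sequence.

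The data were chromatin immunoprecipitation with sequencing (ChIP-seq) of Drosophila melanogaster whole pupae, with age given as 24 hour and male and female animals pooled. The transgenic line stably expressed CG1663 with GFP at its C terminus, an anti-GFP antibody was used, chromatin was sonicated, and the labelled size range was 200 to 800. The 2 samples were biological replicates of 1 group, carrying the numbers 1 and 3. With a single group, values are set beside the replicates, the other peaks and the sequence that meets the same rule. An untagged line was not analysed here, and whole pupae mix all tissues. Read totals are not part of a peak list and the depth is therefore unknown. Intervals given for shares are exact binomial intervals and cover counting error only. They count each summit as independent, though 61.0% of members shared the stretch between 2 genes with another member, so they may be too narrow. All positions are on build dm6, counted from 1.

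A transcription factor bound between genes can sit on an enhancer or silencer, a stretch of DNA that raises or lowers transcription of a gene some way off. In the compact fly genome such elements are common upstream of genes of development and in the gaps between neighbouring genes. The gene with the nearest start is a label for the site and not a known target, since an element can act on a gene further away.

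The windows around the 4 strongest sites are shown because they hold the base composition that ran through the members. Each is the plus strand of dm6 from the RefSeq assembly, 300 bp long with the summit at base 151, and capitals mark TCAGTG or its reverse complement CACTGA.
CG31668 (chr2L:2202256-2202555): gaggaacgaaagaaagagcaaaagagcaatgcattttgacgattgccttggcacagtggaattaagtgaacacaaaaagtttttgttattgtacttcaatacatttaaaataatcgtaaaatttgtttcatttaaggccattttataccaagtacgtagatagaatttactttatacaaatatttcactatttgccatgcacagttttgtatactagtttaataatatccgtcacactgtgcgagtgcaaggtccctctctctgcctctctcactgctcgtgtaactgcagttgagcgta
CG43245 (chr3L:10776410-10776709): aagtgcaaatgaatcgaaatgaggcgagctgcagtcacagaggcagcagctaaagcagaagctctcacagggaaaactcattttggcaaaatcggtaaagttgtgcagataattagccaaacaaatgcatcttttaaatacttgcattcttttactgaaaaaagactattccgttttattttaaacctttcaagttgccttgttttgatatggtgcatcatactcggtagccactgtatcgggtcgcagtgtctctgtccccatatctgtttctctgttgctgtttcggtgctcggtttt
CG17746 (chr3L:3240972-3241271): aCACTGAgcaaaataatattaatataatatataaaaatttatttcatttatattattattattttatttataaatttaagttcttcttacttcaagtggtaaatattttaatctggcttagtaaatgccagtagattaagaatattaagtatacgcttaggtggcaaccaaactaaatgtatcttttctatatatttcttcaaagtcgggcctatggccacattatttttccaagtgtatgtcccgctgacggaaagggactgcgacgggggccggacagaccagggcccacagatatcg
fz (chr3L:14272441-14272740): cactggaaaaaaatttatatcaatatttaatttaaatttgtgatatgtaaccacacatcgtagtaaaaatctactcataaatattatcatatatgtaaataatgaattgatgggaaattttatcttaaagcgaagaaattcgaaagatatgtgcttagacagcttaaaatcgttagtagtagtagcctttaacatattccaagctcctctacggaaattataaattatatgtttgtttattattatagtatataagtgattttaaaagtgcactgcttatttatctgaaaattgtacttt
At these 4 summits the GC content within 50 bp lay between 24.8% and 30.7%. The window at CG17746 held an unbroken run of 35 A and T bases, which lay in its left flank and over 50 bp from the summit.

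The next 4 windows are the strongest sites with the word on both sides of the summit, reading outward on each side, CACTGA to the left and TCAGTG to the right. TCAGT is the core of the initiator, the element that overlaps the transcription start of many fly promoters. The layout is shown because the results on the flanks turn on this word, and it was chosen after the windows had been seen.
Cpr72Eb (chr3L:16364215-16364514): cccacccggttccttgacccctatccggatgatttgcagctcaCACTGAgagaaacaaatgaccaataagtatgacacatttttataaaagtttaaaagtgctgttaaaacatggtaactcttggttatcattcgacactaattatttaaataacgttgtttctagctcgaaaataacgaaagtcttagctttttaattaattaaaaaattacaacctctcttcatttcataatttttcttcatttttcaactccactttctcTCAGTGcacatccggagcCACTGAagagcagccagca
tRNA:Gly-GCC-1-4 (chr2L:14515632-14515931): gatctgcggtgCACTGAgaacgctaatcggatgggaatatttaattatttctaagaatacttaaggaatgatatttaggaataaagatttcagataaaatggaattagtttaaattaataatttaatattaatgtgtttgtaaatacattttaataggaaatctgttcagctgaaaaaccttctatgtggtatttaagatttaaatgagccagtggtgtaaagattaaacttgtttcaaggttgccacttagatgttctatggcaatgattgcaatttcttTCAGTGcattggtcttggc
lncRNA:CR43823 (chr2L:3594041-3594340): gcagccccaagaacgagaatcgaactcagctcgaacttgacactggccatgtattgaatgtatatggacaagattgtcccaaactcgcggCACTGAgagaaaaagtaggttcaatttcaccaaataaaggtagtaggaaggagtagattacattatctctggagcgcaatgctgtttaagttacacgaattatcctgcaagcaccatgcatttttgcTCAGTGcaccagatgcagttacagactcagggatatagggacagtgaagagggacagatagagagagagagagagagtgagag
lncRNA:CR44723 (chr3L:11325727-11326026): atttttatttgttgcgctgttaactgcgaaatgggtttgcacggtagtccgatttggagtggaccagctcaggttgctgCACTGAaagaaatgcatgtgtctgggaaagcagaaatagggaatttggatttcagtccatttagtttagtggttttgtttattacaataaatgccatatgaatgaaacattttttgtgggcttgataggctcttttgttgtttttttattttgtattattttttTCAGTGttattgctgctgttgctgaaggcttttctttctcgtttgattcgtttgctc
Cpr72Eb also held a CACTGA in the right flank, which reads toward the summit. The word lay 51 to 150 bp from each of these summits and not at the summit itself.

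The strongest member lay 3760 bp downstream of the start of CG31668 on 2L (2202005 to 2203280), in a gap of 5808 bp between COX7AL2 and CG31668. Its signal, the peak caller's own value in the authors' list, was 7194.4, which ranked 12 among all 9657 peaks. Replicate 1 gave it 4092.39 (rank 16 of 30000) and replicate 3 gave it 3124.36 (rank 11). A second member, near CG43245 on 3L (10776241 to 10776832, 4635 bp downstream), had a signal of 5225.29 with ranks 37 and 58 in replicates 1 and 3. The third, 1544 bp upstream of CG17746 on 3L (3240753 to 3241366), had 4443.35 with ranks 91 and 49. The ranks of each site were close in the 2 replicates, whose signals come from lists called one by one and are compared by rank.

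The fourth strongest member stood 1752 bp upstream of fz on 3L (14272286 to 14272876), in a gap of 27331 bp. Frizzled, its product, is a receptor of Wnt signals and sets planar polarity of cells. The signal was 4195.46, with 2563.29 (rank 65) in replicate 1 and 1663.33 (rank 96) in replicate 3, and the promoter of fz also held an IDR-thresholded summit. The next 4 members were nearest to long noncoding RNA genes. They were lncRNA:CR45243 (539 bp downstream, signal 3959.6, next to fng, a glycosyltransferase gene that tunes Notch), lncRNA:CR45392 (590 bp downstream, 3784.45), lncRNA:CR45643 (935 bp downstream, 3690.12, next to tara) and lncRNA:CR46113 (850 bp downstream, 3538.88). All 4 lay past the start of the RNA gene and outside it, since no member is inside a gene.

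Members 9 and 16 in strength belonged to the Enhancer of split complex on 3R, the cluster of genes switched on by Notch. One lay 1787 bp upstream of E(spl)malpha-BFM (26008674 to 26009470), a gene of the Bearded family, with signal 3530.64 and ranks 136 and 144 in replicates 1 and 3. The other lay 523 bp upstream of E(spl)m2-BFM (26017682 to 26018444), also of the Bearded family, with signal 3140.35 and ranks 240 and 153. Other IDR-thresholded summits nearest to an E(spl) gene outside the members were 169 bp upstream of E(spl)mbeta-HLH (177.248) and 373 bp upstream of E(spl)m7-HLH (2446.64).

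The remaining members of the strongest 20 had signals from 2804.57 to 3434.54. Gbs-70E (3L, 14552807 to 14553304, 2068 bp upstream, 3434.54) encodes a subunit that brings a protein phosphatase to glycogen, and nw (2R, 17499669 to 17500228, 2354 bp upstream, 3432.91) is named for the narrow wings of its mutants. Cpr72Ea (3L, 16361117 to 16361657, 1232 bp upstream, 3295.68) encodes a cuticle protein. ph-d (X, 2122972 to 2124700, 858 bp upstream, 3044.42) encodes a Polycomb group protein and its site lay in the gap before its neighbour ph-p. The others were nearest to lncRNA:CR45737 (907 bp downstream, 3373.95), lncRNA:CR45935 (1833 bp downstream, 3255.71), CG18404 (2445 bp downstream, 3244.36), CG12268 (611 bp upstream, 3027.25), CG43658 (930 bp upstream, 2879.89) and CG43131 (4104 bp upstream, 2804.57).

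Of the strongest 20 members, 11 were upstream of the nearest start and 9 downstream. All 6 whose nearest start was that of a long noncoding RNA were downstream, and 11 of the other 14 were upstream. The sequence that meets the rule was not split in this way. They carried 20 different nearest genes, and 9 of the 20 were on 3L. Their ranks ran from 16 to 280 of 30000 in replicate 1 and from 11 to 286 in replicate 3.

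As a body, the members had signals close to those of the other sites. Their signal ran from 170.3 to 7194.4 with a median of 375.8 (quartiles 240.9 and 685.0), against a median of 385.1 over all 9657 peaks. The median was 354.1 for summits between genes and over 5000 bp from a start, 379.5 for those inside genes and 408.6 for those within 500 bp of a start. The ratio of the members' median to that of all peaks was 0.976. Among the 9657 strongest peaks of each replicate, members by the same rule gave ratios of 0.907 in replicate 1 and 1.06 in replicate 3, on both sides of 1. The strong end held fewer of them, with 5 among the 100 strongest peaks and 104 among the 1000 strongest (10.4%, against 13.3% of all peaks).

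Nearly all members overlapped a peak in each replicate's list. Each of these lists holds exactly 30000 peaks, and whether a limit on their number was set is not given in the labels or files. A peak of replicate 1 overlapped 1280 of them (99.3%) and a peak of replicate 3 overlapped 1241 (96.3%), where the replicate peak with the nearest summit counted as the match. Both replicates matched 1232 (95.6%, 95% exact interval 94.3 to 96.6), against 94.8% of all IDR-thresholded peaks, so the members' share was near the background. The 48 members without a match in replicate 3 had signals up to 559.0 and the 9 without one in replicate 1 up to 608.7. Matched summits lay a median of 9 bp away in replicate 1 and 8.5 bp in replicate 3.

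Signals of the 1232 matched members had a median of 234.2 in replicate 1 (24.7 to 4092.4) and of 155.3 in replicate 3 (15.3 to 3124.4). The Spearman correlation of the 2 signals over these sites was 0.878, against 0.851 over all matched peaks. It was 0.885 between genes and over 5000 bp from a start, 0.866 inside genes and 0.845 within 500 bp of a start. This is a description across sites that share a control and were kept for passing the IDR threshold. Within quartiles of the IDR list's signal, from strongest to weakest, it was 0.887, 0.313, 0.0300 and -0.352. That signal is derived from both replicates, so cutting by it lowers the correlation within a narrow quartile. A shared order was seen over the whole range and in the strongest quartile. The lower quartiles cannot show whether the replicates shared an order there. The rank was better in replicate 1 for 847 of the 1232 (68.8%), with medians of 4703.5 in replicate 1 and 5216.5 in replicate 3. Between genes and over 5000 bp from a start it was better in replicate 1 in 73.8% of cases, and inside genes in 64.4%. The lean to replicate 1 was therefore not particular to the members. For summits within 500 bp of a start the rank was better in replicate 1 in 44.7% of cases. The list of the 9657 strongest peaks of replicate 1 held 1402 sites that met the rule and that of replicate 3 held 1090, a mean share of 12.9% ± 2.28 (SD, n = 2). In all, 988 members (76.6%) ranked within the first 9657 of both replicates.

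**Figure D1:**
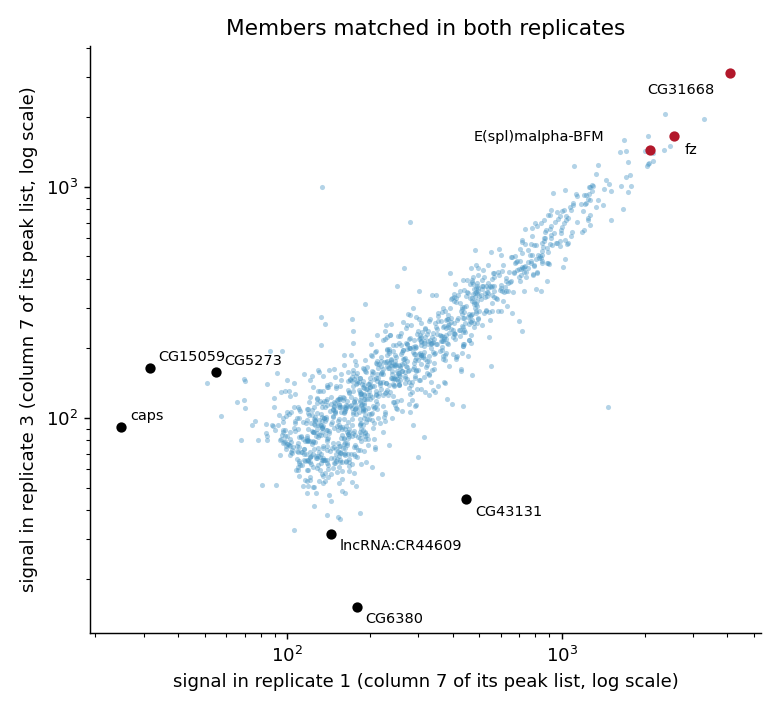
Signal of each of the 1232 members matched in both replicates, replicate 1 on the horizontal and replicate 3 on the vertical axis, both on log scales. Red points are 3 named strong members and black points are the 6 members with the largest rank differences, and the cloud narrows toward high signal.

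At some members the replicates were far apart. The site 2908 bp upstream of CG15059 on X (18262290 to 18262508, signal 276.3) had 31.5 (rank 20359) in replicate 1 and 164.9 (rank 4854) in replicate 3, and its replicate 3 peak also matched a neighbouring site. A site 1468 bp upstream of caps, a gene for a cell surface protein with leucine-rich repeats, on 3L (13227087 to 13227269, 242.8) ranked 23783 and 8846 in replicates 1 and 3. A site 599 bp upstream of CG5273 on X (758916 to 759037, 208.7) ranked 14342 and 5122. In the other direction, a site 1267 bp upstream of CG6380 on 2L (17293320 to 17293537, 299.8) ranked 5959 in replicate 1 and 29313 in replicate 3, and its replicate 3 summit was 195 bp away. A site 3421 bp upstream of CG43131 on 3R (492.3) ranked 2424 and 15728, and one 2538 bp downstream of lncRNA:CR44609 on 2L (176.1) ranked 7169 and 19765, with matched summits 2 to 8 bp away in both.

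Some sites could not be told apart from a neighbour. For 27 members the matched peak of a replicate was also the match of another IDR-thresholded peak. Without them the Spearman correlation was 0.887 over 1205 members. The point with the highest replicate 3 signal relative to replicate 1, a site 988 bp downstream of CG46304 (signal 386.6), was one of them. It had 134.0 in replicate 1, and its 1002.4 in replicate 3 was the peak of a stronger member 201 bp away. The point farthest the other way, 553 bp downstream of lncRNA:CR45424 (191.4), had 1472.1 in replicate 1 from a peak shared with a site 212 bp away. Both points were chosen after their values were seen.

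Over all distances together, members lay upstream of the nearest start somewhat more often than the sequence open to them. The 878 upstream members made up 68.1% (95% exact interval 65.5 to 70.7), with 68.3% and 67.9% in the lists of replicates 1 and 3, against 64.1% of the 16.4 Mb of bases that meet the same rule. These bases are 12.2% of the 6 chromosome arms and were counted in full. There were 83.7 members per Mb upstream and 70.1 per Mb downstream. The interval of the upstream share does not allow for several members in 1 gap and may be too narrow. In the step over 500 and up to 1000 bp the order was the opposite, with 87.2 members per Mb upstream (197 members) and 102.5 downstream (58 members). There 77.3% of members were upstream against 80.0% of bases, and no interval was computed for this step. Median signals were 381.2 upstream and 366.9 downstream.

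Distance from the start had a median of 2016 bp (quartiles 1153 and 3359), against 2199 bp (1254 and 3401) for the bases. The density was 90.3 members per Mb over 500 and up to 1000 bp from a start and 83.9 per Mb up to 2000 bp. Beyond 2000 bp it was 65.9, 78.9 and 74.9 per Mb in the next 3 steps of 1000 bp, so it did not fall steadily. The median signal was 416.1 and 406.4 in the nearer steps and 324.3, 329.1 and 340.7 in the farther ones. At the inner limit of the rule, the members just inside were 501 bp upstream of glec (3R, signal 421.8) and 501 bp upstream of retn (2R, 607.0), and the summits just outside were 497 bp upstream of daw (219.0) and of lncRNA:CR44562 (212.0). At the outer limit, the last members were 4991 bp upstream of Tollo (1359.5) and 4977 bp upstream of CG17104 (221.3), and the first summits outside were 5005 bp upstream of CG13481 (1761.2) and 5017 bp downstream of Idgf3 (180.2).

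**Figure D2:**
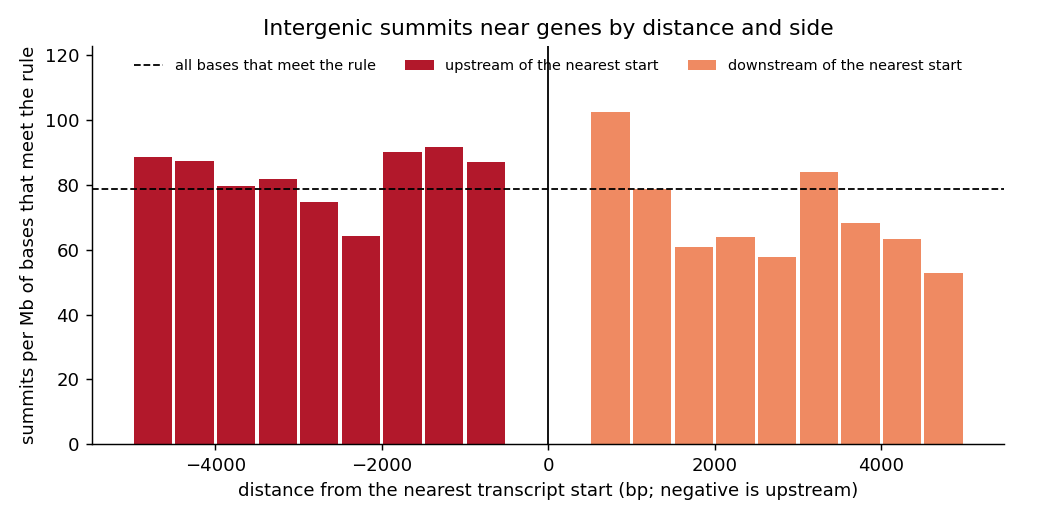
Members per Mb of bases that meet the rule, in 500-bp steps of distance from the nearest transcript start, upstream at negative distances and downstream at positive ones. The dashed line is the density over all such bases, 78.8 per Mb, and the step from 500 to 1000 bp downstream is the highest bar with 102.5 per Mb from 58 members.

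Members filled gaps of each kind nearly in proportion to their bases. Gaps between divergent genes, whose starts face the gap, held 369 members, 28.6% (95% exact interval 26.2 to 31.2) against 26.8% of the bases. Gaps between genes read in the same direction held 668 (51.8% of members, 52.6% of bases) and those between convergent genes 252 (19.6% of members, 20.6% of bases). Each of the 3 intervals covered the share of the bases. Replicate lists gave 29.1% and 29.3% in divergent gaps.

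Many gaps held several members. In all, members filled 792 gaps, and 289 of these held 2 or more, with 786 members (61.0%) between them and at most 8 in a gap. The gaps with members had a median length of 8299 bp when counted once per member. The nearest other IDR-thresholded summit was a median of 1536 bp away and within 500 bp for 146 members (11.3%). In 65 cases a member shared the coordinates of its peak with another member and differed from it in summit only.

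The arm 3L was rich in members. It held 399 of them, 114.2 per Mb of bases that meet the rule, against 75.9 per Mb on 2L, 71.2 on 3R, 64.5 on 2R, 64.5 on X and 8.35 on chromosome 4, where there was 1 member. In the replicate lists 3L stood highest too, with 125.6 per Mb in replicate 1 and 102.1 per Mb in replicate 3. Of all members 31.0% were on 3L (95% exact interval 28.4 to 33.6), against 21.4% of the bases. Among the other IDR-thresholded peaks 21.6% were on 3L (20.7 to 22.5), but among summits between genes and over 5000 bp from a start the share was 33.8% (30.5 to 37.2). The members' median signal was also highest on 3L among the 5 large arms, at 422.0, with 307.4 on X the lowest.

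**Figure D3:**
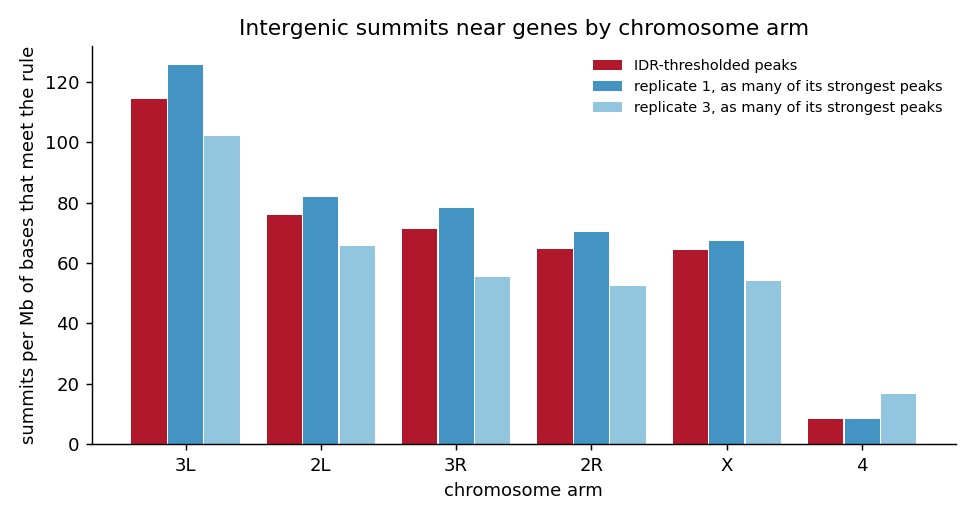
Members per Mb of bases that meet the rule on each chromosome arm, from the IDR-thresholded peaks and from the strongest peaks of replicate 1 and replicate 3 in equal number. The bars of 3L stand between 102.1 and 125.6 per Mb, above every other arm in each list.

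The starts nearest to the members belonged to 860 of 18164 genes (4.73%). Of these, 566 had 1 member, 294 had 2 or more and 32 had 4 or more. The gene with the most was lncRNA:CR45936 on 3L (gene at 18243700 to 18244239), with 7 members from 3892 bp upstream to 2206 bp downstream and signals from 228.1 to 752.7. Replicate ranks of its strongest member were 2046 and 3045 in replicates 1 and 3. That member ranked 2393 among all peaks, so the gene with the most members had none among the strongest.

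Of the 8 genes with 5 or more members, 6 were on 3L, and of the 32 with 4 or more, 20 were. Of the 24 genes with exactly 4, those with the highest signals, lncRNA:CR45243 and lncRNA:CR45392, are named here beside the 8. lncRNA:CR45737 had 6 with signals from 367.1 to 3374.0, of which the 4 downstream ones lay in the gap before sty, which encodes an inhibitor of receptor tyrosine kinase signals. CG13898 had 6 from 396.6 to 2218.0, 3 upstream and 3 downstream of its start. vers had 6, all upstream, from 251.9 to 1468.9, and tRNA:Gly-TCC-2-2 on 2R had 6 from 171.3 to 979.8. lncRNA:CR45234 (311.7 to 2388.1) and CG12984 (170.5 to 1525.9) had 5 members each, all upstream. lncRNA:CR45568 on 3R had 5 (287.0 to 1610.1), lncRNA:CR45243 had 4 (205.4 to 3959.6) and lncRNA:CR45392 had 4, all downstream (683.2 to 3784.5).

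Noncoding genes were the nearest neighbours of many members. Starts of long noncoding RNAs were nearest to 446 members, 34.6% against 26.9% of the bases, a density of 101.1 per Mb. The replicate lists gave 34.8% in each. Starts of protein-coding genes were nearest to 785 members, 60.9% against 67.3% of the bases, a density of 71.3 per Mb. Transfer RNA genes had 34 members (143.1 per Mb) and pseudogenes 8 (18.8 per Mb). A long noncoding RNA was nearest for 50.6% of downstream members and for 27.1% of upstream ones, and 77.1% of the members nearest to a protein-coding start were upstream of it. The rule leaves out bases inside genes, which lie downstream of starts. The bases that meet it were not split by kind of gene and side together, so these shares have no background here.

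In some genes the site between genes came with a site at the promoter. Of the 860 nearest genes, 231 (26.9%) had an IDR-thresholded summit within 500 bp of a start, against 18.8% of all genes. By members the number was 362 (28.1%), and it was 34.98% in the quartile with the strongest signal and 24.8% in the weakest.

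Ecdysone genes, which make or answer the steroid hormone of metamorphosis, had the largest share of nearest genes among the 21 lists. The lists were chosen with earlier results of these data known, and the next 2 had shares of 15.8% and 14.8%. Of the 31 ecdysone genes, 5 (16.1%) had members, against 4.73% of all genes. Their 10 members stood at 204.6 per Mb against 78.8 per Mb over all bases. All 10 were upstream, against 77.1% of all members nearest to a protein-coding start. Of the 10, 8 were on 3L, where members by any gene stood at 114.2 per Mb. shd, the P450 that makes the active hormone 20-hydroxyecdysone, had 4 of them on 3L between 539 and 3789 bp upstream. Its strongest site (14610441 to 14610909) had a signal of 1315.4, with 817.1 (rank 1112) in replicate 1 and rank 1277 in replicate 3, and the others had 1230.4, 923.5 and 512.5. A site 546 bp upstream of ImpE2 (3L, 3512934 to 3513425), an ecdysone-inducible gene, had 966.9 with ranks 1377 and 2921, and its neighbour 1528 bp upstream of Eip63E, a cyclin-dependent kinase gene, had 896.3 with ranks 1972 and 1910. Both sites are in the gap of 3069 bp between these divergent genes. The other genes of the list with members, named with their values known, were the nuclear receptor genes Eip75B (775.1 and 403.7) and Hr38 (313.1 and 195.4), with 2 each. The 2 at Eip75B were summits of 1 peak with the same coordinates. The median signal of the 10 members was 835.7, against 375.8 over all members.

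The lists of Wnt, Hedgehog, Dpp and EGF receptor signalling and of the Notch pathway came next. In the first, 9 of 57 genes (15.8%) had 12 members, all upstream, at 180.9 per Mb and with a median signal of 516.0. Besides fz they were led by Dad, an inhibitory Smad of Dpp signalling (3R, 17052697 to 17053178, 1077 bp upstream, signal 1648.5, ranks 935 and 683), and by aop, a repressor under EGF receptor control (2L, 2180043 to 2180466, 1508 bp upstream, 1231.6, ranks 1350 and 1177). The other genes with members, named with their values known, were led by weaker sites upstream of kek1 (1176.6), nkd (944.6), the Hedgehog receptor gene ptc (485.6), pnt (442.4), hh itself (312.0) and daw (217.6). In the Notch list 4 of 27 genes (14.8%) had 1 member each, all upstream, at 123.6 per Mb and with a median signal of 1773.3. These were the E(spl) genes above, the ligand gene Ser (3501 bp upstream, 406.1, ranks 4357 and 5188) and, named with its value known, mib1, a ubiquitin ligase gene for Notch ligands (1585 bp upstream, 244.1, ranks 8259 and 6649).

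Genes for adhesion and guidance had members at 7 of 85 genes (8.24%), with a density of 51.5 per Mb, below that of all bases. The strong ones were the large cadherins of planar polarity and growth control. ds had 3 members on 2L, of which the first (715314 to 715805, 585 bp upstream) had 2788.9 with ranks 201 and 370, and ft had one 1314 bp upstream (2L, 4222876 to 4223358) of 2306.7 with ranks 458 and 351. dpr20 followed with 642.4. Selector genes of body plan and appendages had 5 of 53 (9.43%) at 37.4 per Mb, with weak sites at bab2 (437.7), pdm2 (349.3) and Doc2 (219.9). Neural fate regulators had 4 of 29 (13.8%) at 80.4 per Mb, with nerfin-1 (390.1), esg (308.6) and sna (298.0), the last without a match in replicate 3. Of 9 GATA factors and blood cell regulators only srp had a member (3R, 15984361 to 15984937, 1530 bp upstream, 1385.4, ranks 1288 and 869).

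Lists of cuticle, chemosensory, muscle and cell death genes each stood near the 78.8 members per Mb of all bases, slightly above it. They held 13, 29, 3 and 2 members, and no interval was computed for these densities. Cuticle proteins had 10 of 125 genes (8%) at 84.3 per Mb, led by Cpr72Ea and by Cpr72Eb (1726.9, 534 bp upstream, ranks 842 and 650) in the same cluster and by Cpr51A on 2R (1526.6). Chemosensory receptors and odorant-binding proteins had 20 of 238 (8.40%) at 84.6 per Mb, with 3 taste receptor genes of 1 cluster on 3R highest, Gr93d (2188.2), Gr93b (1995.7) and Gr93a (1141.4). Muscle genes had 2 of 25, the actins Act87E (659.6) and Act57B (408.6), at 87.2 per Mb. Of 9 cell death genes rpr had 2 members (580.3 and 467.4), at 92.9 per Mb. The list counts only genes with the nearest start. The 5 members nearest to lncRNA:CR45234, with signals up to 2388.1, lay in the gap between it and the cell death gene hid.

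Other lists had few members. Heat shock genes had 1 of 27 (3.70%), a strong site 605 bp upstream of stv, a co-chaperone gene (3L, 13476708 to 13477271, 2239.3, ranks 385 and 558), at 55.6 per Mb. Immune peptides and regulators had 1 of 49, at PGRP-SA, a sensor of bacterial peptidoglycan (1378.7, ranks 1183 and 980), a density of 34.2 per Mb. Neuropeptides and hormones had 1 of 43, at Pburs, a subunit of the hormone bursicon (598.4), a density of 28.4 per Mb. Cytochrome P450 genes had 1 of 87, at Cyp6v1 (220.5), a density of 14.2 per Mb, with shd counted in the ecdysone list. Cytoplasmic ribosomal proteins had 2 of 93, RpL22-like (256.9) and RpS3 (227.9), and none of 9 circadian clock genes had a member. By class of RNA, long noncoding RNAs had 261 of 1944 genes (13.4%), transfer RNAs 17 of 295 (5.76%) led by tRNA:Lys-CTT-1-11 (2013.7), tRNA:Gly-GCC-1-4 (1670.6) and tRNA:Ser-AGA-1-1 (1358.9), microRNAs 2 of 260 (mir-957 with 326.4 and mir-287 with 240.6), and small nuclear and nucleolar RNAs 2 of 306, snoRNA:Me28S-C788b (629.6) and snoRNA:Psi28S-3436b (200.5). Of the 21 lists, 13 had a larger share of nearest genes than all genes and 10 had more members per Mb than all bases.

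The DNA under the summits was rich in A and T. Within 50 bp of the summit the median GC content of members was 28.7% (quartiles 24.8 and 33.7), against 40.6% (32.7 and 46.5) in 119726 windows of 101 bp tiled over the sequence that meets the rule and lies over 500 bp from any pooled peak. The content was below the median of these windows in 1170 members (90.8%) and in all of the strongest 20, from 17.8% at E(spl)m2-BFM to 38.6% at nw. Replicate lists gave medians of 28.7% and 29.7%. The dip was local, since members had 29.8% and 30.2% GC in the 50-bp bins to the left and right of the summit and 47.0% at 250 to 350 bp to the right. Summits over 5000 bp from a start had a median of 27.7%, those inside genes 29.7% and those within 500 bp of a start 30.7%.

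**Figure D4:**
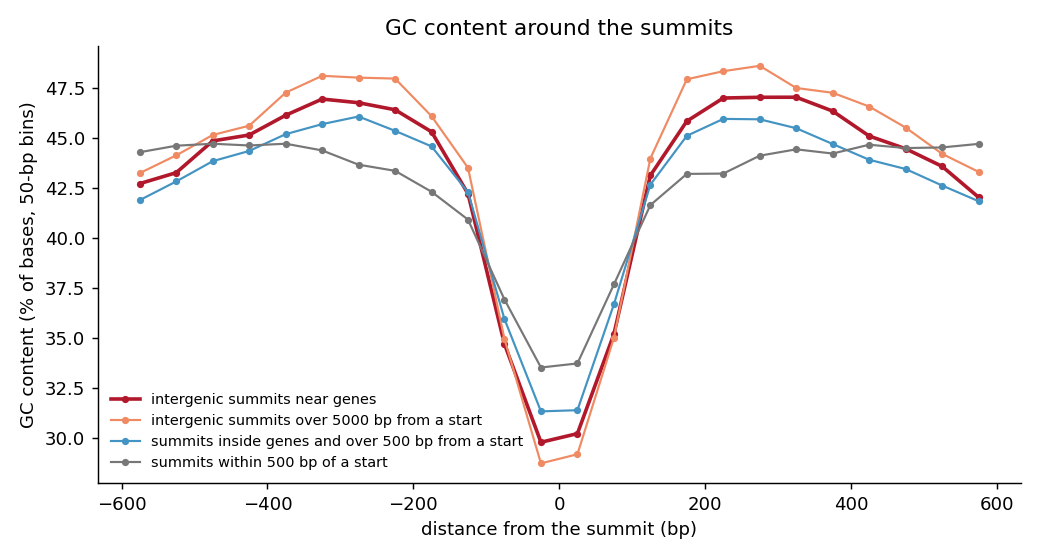
Mean GC content in 50-bp bins up to 600 bp to each side of the summit, for the 1289 members and the 3 other classes of IDR-thresholded summits. The members drop to about 30% at the summit and reach 47.0% some 300 bp away, and each class has a dip at the summit.

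Words that read outward from the summit stood on both flanks. TCAGTG to the right of the summit or CACTGA to the left, at 51 to 150 bp, was found in 272 members, 21.1% (95% exact interval 18.9 to 23.4), against 15.5% of all IDR-thresholded summits. It was found in 3.72% of the windows away from peaks, which were not matched to the members on base composition. The same word reading toward the summit was in 3.65% of members (2.69 to 4.82), against 3.69% of the windows away from peaks, so of the 2 directions the outward one differed from those windows. The outward share was 23.9% (21.0 to 27.1) for summits over 5000 bp from a start, 16.2% (15.1 to 17.3) inside genes and 9.78% (8.73 to 10.9) within 500 bp of a start. The last 2 intervals lie below that of the members, and the first overlaps it.

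The outward word had its highest count in the bins from 50 to 100 bp, with 7.76 per 100 members to the left and 7.99 to the right, and was down to 1.63 and 1.01 within 50 bp of the summit. The replicate lists gave 21.5% and 20.4% of sites. On 2L, 3L and X it was found in 21.4% of members and on the other arms in 20.5%. The word was chosen after the windows had been seen, so neither the arms nor the replicate lists are a separate check of it. From the strongest to the weakest quartile of signal the shares were 23.8%, 22.7%, 19.9% and 18.0%, with intervals that overlap. The word stood on both sides in 28 members (2.17%), against 0.0317% of the windows away from peaks.

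**Figure D5:**
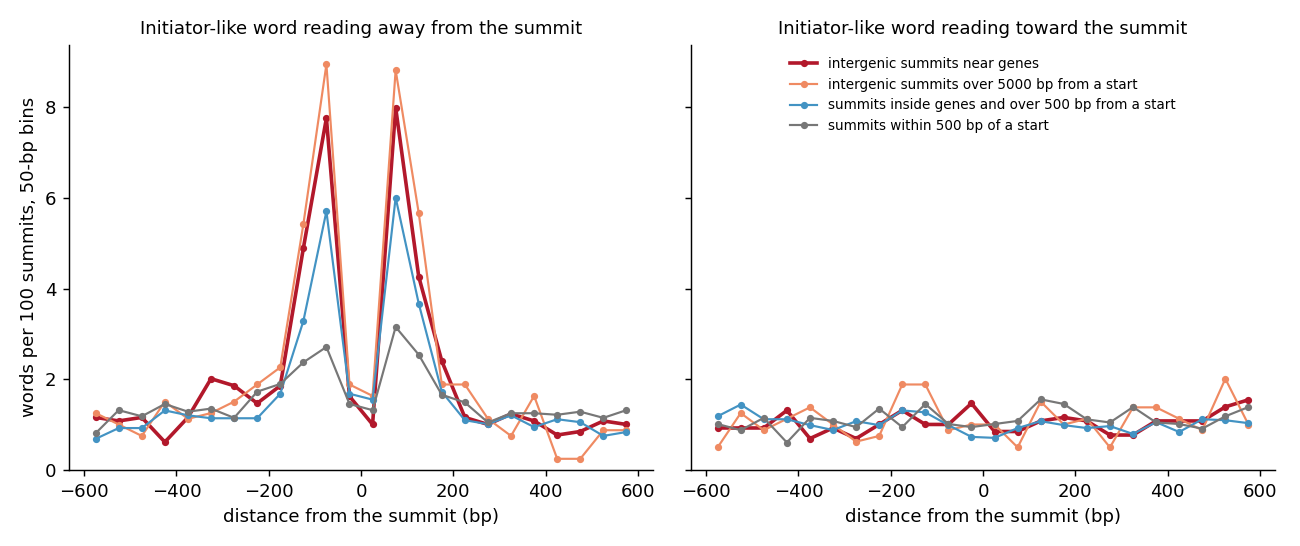
Number of TCAGTG words (either strand) per 100 summits in 50-bp bins, reading away from the summit on the left and toward it on the right, for the members and the 3 other classes. Outward words peak at 50 to 100 bp to each side of the members at 7.76 and 7.99 per 100 summits, and inward words stay between 0.698 and 1.55.

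Named members with an outward word included Cpr72Eb, Eip63E, aop, srp, ft, stv and Doc2, but of the strongest 20 only CG17746 and lncRNA:CR46113 had one. Among words of 8 bases in the flanks, ranked on 2L, 3L and X by their count at 51 to 150 bp over that at more than 350 and up to 450 bp, TCAGTGCA was in 68 of 826 members near the summit and in 4 far from it. On 2R and 3R it was in 42 and 1 of 462. CACTGAGA was in 62 and 3 members of the ranking arms, and in 39 and 1 of the others. Of the 10 leading words 3 held TCAGTG or CACTGA, and the others included AGTACACT (18 and 0, with 12 and 0 on the other arms), CAGTGTAG (28 and 2, with 17 and 0) and ATACCCTG (21 and 0, with 10 and 0).

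Of 18 known motifs searched on both strands within 50 bp of the summit, 3 had a share in members whose interval lay above the share in windows away from peaks. They were the GATA factor site AGATAA (9.46%, 7.92 to 11.2, against 5.81%), the homeodomain site TAATTA (12.4%, 10.7 to 14.3, against 8.53%) and the A tract AAAAAAAA (8.07%, 6.64 to 9.69, against 5.94%). Over all other IDR-thresholded summits the shares were 9.14%, 10.7% and 9.88%, each inside or just above these intervals. In the lists of replicates 1 and 3 the intervals of all 3 lay above the windows' share as well. All 3 motifs are rich in A and T, as the members were, and the part of base composition was not tested.

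For 7 motifs the share in windows away from peaks was above the interval of the members. They were GAGAG of the GAGA factor (6.36% against 9.80%), CACACACA (0.698% against 2.04%), the E-boxes CACGTG (0.0776%, 1 member, against 1.19%) and CAGCTG (2.02% against 3.57%), the nuclear receptor half-site AGGTCA (1.24% against 2.50%), the Su(H) core GTGGGAA (0.465% against 1.35%) and the Scalloped site GGAATG (3.57% against 5.01%). In both replicate lists this held for 5 of the 7. GTGGGAA was in 0.927% (0.495 to 1.58) of the sites of replicate 1 and in 1.19% (0.637 to 2.03) of those of replicate 3, whose intervals cover the windows' share. GGAATG was in 4.40% (3.26 to 5.80) of the sites of replicate 3, which covers it too. Over all other IDR-thresholded summits GAGAG was in 9.80%, CACACACA in 1.42% and CACGTG in 0.502%, each above the members' interval. CAGCTG (2.13%), AGGTCA (1.94%), GTGGGAA (0.825%) and GGAATG (3.05%) were inside the members' intervals, so their low shares were not particular to the members. The part of base composition was not tested for these motifs either. For the other 8 motifs the share in windows away from peaks was inside the interval, with 0.0776% to 1.63% of members, and in both replicate lists this held for 7 of the 8. The exception was ATGCAAAT, in 1.43% (0.873 to 2.19) of the sites of replicate 1 against 2.28% of the windows. These were GAGAGAGA, TATCGATA of Dref, CAGGTAG of Zelda, the AP-1 site TGACTCA, GGTCACAC of M1BP, the Ets site CCGGAAGT, the forkhead site TGTTTAC and the POU octamer ATGCAAAT.

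Words of 7 bases ranked on 2L, 3L and X by their share in members over that in windows away from peaks were made of A and T almost alone. TAATATA was in 11.5% of members, against 3.88% of windows on these arms, and in 11.0% against 3.50% on 2R and 3R. ATATATA was in 13.0% against 4.71%, and in 13.0% against 4.07% on 2R and 3R. All 10 leading words had 6 or 7 A and T bases. All the shares above count letters in the reference genome and do not say which of these sites the protein touches.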

How the data were processed

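Peak lists on build dm6 were used as deposited. Per the README deposited with the samples, the authors called peaks for replicate 1, for replicate 3 and for both pooled, each against the same single control, and derived the optimal IDR-thresholded list from them. Aligner, peak caller, IDR program, their versions and thresholds: not given in the sources used here. The peak signal is the caller's value for each peak as deposited by the authors, and it was used to describe and rank peaks within a list. The −log10 q-values deposited by the authors were the same in all 9657 IDR-thresholded peaks and ranked nothing. Each called list holds 30000 peaks, read depth is unknown, and 0 columns of per-sample values went unused.

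Summits were classed with Python 3.11.15, numpy 2.4.6, pandas 2.3.3 and scipy 1.17.1 against Ensembl BDGP6.54, with 18164 genes (transposable elements left out) over 6 chromosome arms. Of the genes, 17683 were shared with the RefSeq Release 6 annotation, whose genome gave the sequences. A replicate peak matched a member when they shared 1 bp or more, and the nearest summit was taken. Single-replicate lists are the 9657 strongest peaks of that replicate. Shares have exact Clopper-Pearson intervals of 95%, and no test was run, as there is 1 group of 2 samples. Windows away from peaks held 101 bp, over 500 bp from any pooled peak. The code was tested on simulated data.

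The members and the 21 gene lists (3801 genes matched, 6 entries not) were chosen with earlier results of these data known. The lists cover the signalling, regulator, tissue and RNA classes given in the results. Genes named are those nearest to the 20 strongest members, the 10 genes with most members, up to 3 genes with the highest signal per list, the 3 members in each direction with the largest rank difference, and the 2 summits on each side of each limit. Others are said to be named with values known. Alternatives were another gene annotation, other distance limits, peak midpoints, the stronger 50% of peaks, other match rules and each replicate alone.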

Additional observations from a re-analysis of the deposited data

How the results depend on the processing

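Of the values recomputed under the alternatives, 79 stayed within 1 SD of the replicates, within their interval or, for counts, within 1.5 times. The other 36 moved by more. The RefSeq annotation gave the same values as the main setting, and 17681 of the 17683 shared genes had the same coordinates. It was therefore not a separate check, though its values are among the 79. The SD is over 2 replicates only, so these counts are no measure of robustness. The ratio of the members' median signal to that of all peaks, 0.976, crossed 1 with protein-coding genes only (1.01), without replicate 1 (1.06) and with limits of over 500 and up to 2500 bp (1.03), each within 1 SD of the replicates. No paired analysis was possible because there is no second group. With protein-coding genes only, 76.2% of members were upstream (68.1% with all genes), 35.9% were in divergent gaps (28.6%) and the median distance was 2206.5 bp (2016 bp). With 1 start per gene the upstream share was 69.0% and the divergent share 28.8%. With the stronger 50% of peaks there were 630 members nearest to 466 genes, with a median distance of 1828 bp, 69.0% upstream, 98.4% matched in both replicates, a GC content of 27.7% and an outward word in 22.9%. Limits of over 1000 and up to 5000 bp gave a share of 10.7% of peaks, 65.9% upstream, 27.9% divergent and 2552.5 bp. Limits of over 500 and up to 2500 bp gave 762 members, 7.89% of peaks, 72.2% upstream, 30.2% divergent and 1284 bp. A match by overlap of 50% of both peaks held for 74.5% of members and by summits within 100 bp for 92.8%. Midpoints gave 28.4% divergent and an outward word in 21.97%, and 1 summit per run within 500 bp gave 28.4% divergent and 2059 bp. Single replicates gave GC contents from 28.7% to 29.7%, distances from 1964 to 2005.5 bp and divergent shares from 29.1% to 29.3%. Chosen after seeing the data, transposable elements counted as genes gave 67.7% upstream and 27.4% divergent, and leaving out 3L gave 67.8% upstream, 28.9% divergent and 2095.5 bp. Of the 18 motifs, 13 moved with windows of 100 bp to each side, 2 with the stronger 50% of peaks (GAGAG to 4.92%, CCGGAAGT to 0), 3 without replicate 1 (GTGGGAA to 1.19%, CACGTG and CCGGAAGT to 0) and 0 without replicate 3. The causes were not tested. Depth is unknown and sets no limit that can be given here.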
